A study of Homo sapiens with 12 samples.

Results

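The replication-dependent histone genes encode the core histones H2A, H2B, H3 and H4 and the linker histones H1 that package newly made DNA. They lie in clusters, have no introns in their classical form, and are transcribed mainly while DNA is being copied. Their messenger RNAs usually end in a conserved stem-loop in place of a poly(A) tail. The stem-loop is bound by SLBP, which takes part in cutting, translating and degrading these transcripts, so that histone supply follows DNA synthesis in dividing cells.

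They were measured by RNA sequencing in IMR32, an established human neuroblastoma cell line in which the MYCN gene is amplified, grown in RPMI-1640 with 10% FCS. All samples were electroporated by Nucleofector with siRNA and taken after 72 h. There were 4 groups of 3 samples each: siCtrl with a non-targeting control, siMYCN with MYCN reduced, siHAND2 with HAND2 reduced, and the combined knockdown with both siRNAs at once. By the sample titles, the siRNA of a target bears the same number in every sample that received it. Other effects of that siRNA and the loss of its target therefore cannot be told apart. Both targets are transcription factors, and the comparisons ask how histone transcripts differed when either or both were reduced. All groups are the same cell line, and nothing in the labels says that the samples of a group came from separate cultures, so p-values measure only the spread between these samples. Total RNA was used, and whether libraries were selected for poly(A) tails is not given in the sources used here.

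Members were the rows whose symbol begins with HIST1H, HIST2H, HIST3H or HIST4H, less 3 pseudogenes, which left 70 of 27514 rows. They comprised 6 H1, 17 H2A, 18 H2B, 14 H3 and 15 H4 genes. The pairs HIST2H2AA3 and HIST2H2AA4, HIST2H3A and HIST2H3C, and HIST2H4A and HIST2H4B held identical values and positions, and each pair was counted once, which left 67 distinct members. Of these, 60 reached a mean of 1 CPM (reads scaled to the size of the library) over the samples and were tested: 4 H1, 15 H2A, 17 H2B, 12 H3 and 12 H4 genes. The 7 that did not were HIST1H1A, HIST1H1T, HIST1H2AA, HIST1H2BA, HIST1H4F, HIST1H4G and HIST3H3, and HIST1H4G was listed at the floor of the table in every sample. HIST1H1T, HIST1H2AA, HIST1H2BA and HIST3H3 are known as testis histones, and the highest of these values in any sample was 0.66 CPM, for HIST1H1T.

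The name of the group was checked against the sequence at the 3′ end of each row. The motif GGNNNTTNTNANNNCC was searched on the transcript strand from 200 bases before to 100 bases after the listed end. It was present in 55 of the 60 distinct tested members and in all 7 untested ones, against 130 of 27373 other listed genes, or 0.475%. In 53 of the 55 the 6-base arms around the loop of 4 bases pair completely. The commonest form was found in 34 members, and the form with C and G within the stem was found in H4 genes. The following sites show that common form, the H4 form, and the form in the members with the largest falls, HIST1H3E and HIST1H2BI, whose loops differ from the common one. Capitals mark the 16 bases of the motif, read 5′ to 3′ on the transcript strand with 5 flanking bases on each side.

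HIST1H1B, GRCh37 chr6:27834575-27834590, minus strand: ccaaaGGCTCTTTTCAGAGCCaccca
HIST1H4A, GRCh37 chr6:26022258-26022273, plus strand: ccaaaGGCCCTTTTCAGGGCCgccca
HIST1H3E, GRCh37 chr6:26225824-26225839, plus strand: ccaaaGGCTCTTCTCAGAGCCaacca
HIST1H2BI, GRCh37 chr6:26273620-26273635, plus strand: ccaaaGGCTCTTCTAAGAGCCaccca

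The 5 members without the motif in this window were HIST1H2BD, HIST1H2BK, HIST2H2BE, HIST2H2BF and HIST2H4A, whose rows each span over 1 kb. The loop TTTC was held by 44 members, TTTA by 5, TTTT by 3, TCTC by 2 and TCTA by 1. Beside HIST1H3E, the other TCTC member was HIST1H4L, with a combined log2 fold change of -1.52. The median over the TTTC members was -1.48. In the combined knockdown the median log2 fold change was -1.49 over the members with the motif in the window and -1.54 over those without it there. The rest of each row was not searched, so these 5 members are not shown to lack a stem-loop.

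The regions before the transcription starts were also compared by histone type. RefSeq promoters (GRCh38.p14, from 250 bases before to 50 bases after the start) were found for 55 of the 60 distinct tested members, and motifs were searched on both strands. CCAAT was present in all 4 H1, all 14 H2A, all 17 H2B and all 10 H3 genes but in 2 of 10 H4 genes. It was present in 85.5% of members against 34.6% of 35116 promoters. Here and below, a member was counted if any of its promoters matched (59 promoters for 55 members). The background was counted by promoter (35116 promoters of 27305 genes), so the units of the 2 shares differ. TATAAA was present in 37 members (67.3%, against 11.5% of all promoters). The octamer ATTTGCAT was present in 24 members, 10 of them H2A and 13 H2B genes (43.6%, against 1.77%). AAACACA, known from H1 promoters, was present in all 4 H1 genes and 6 members in all (10.9%, against 5.64%). The letters CACGTG, an E-box known to be bound by MYC proteins, were in none of the 55 against 7.26% of all promoters, and CATCTG, an E-box of the kind bound by HAND2 with its partners, was in 9 (16.4%, against 14.7%). The 150 bases before the RefSeq start are given for 1 gene of each of 4 types, with every match to these motifs, on either strand, in capitals. They show the H1 motif, the octamer and TATA pair of an H2B gene, the 4 CCAAT copies of HIST1H3G, and an H4 gene without CCAAT.

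HIST1H1B, GRCh38.p14 chr6:27867589-27867738, minus strand: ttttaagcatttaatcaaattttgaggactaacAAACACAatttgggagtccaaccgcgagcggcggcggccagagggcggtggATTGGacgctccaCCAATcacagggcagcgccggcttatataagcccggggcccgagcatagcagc
HIST1H2BJ, GRCh38.p14 chr6:27132796-27132945, minus strand: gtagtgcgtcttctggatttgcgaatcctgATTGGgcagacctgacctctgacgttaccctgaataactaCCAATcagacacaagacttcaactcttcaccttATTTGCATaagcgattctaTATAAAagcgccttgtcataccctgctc
HIST1H3G, GRCh38.p14 chr6:26271414-26271563, minus strand: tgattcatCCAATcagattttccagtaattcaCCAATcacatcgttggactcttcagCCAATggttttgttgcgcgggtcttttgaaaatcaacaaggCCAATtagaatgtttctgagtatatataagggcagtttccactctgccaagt
HIST1H4J, GRCh38.p14 chr6:27823942-27824091, plus strand: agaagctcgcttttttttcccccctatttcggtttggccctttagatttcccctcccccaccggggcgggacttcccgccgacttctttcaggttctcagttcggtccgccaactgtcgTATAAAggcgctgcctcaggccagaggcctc

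These letters describe the windows and do not show that a factor was bound. In the combined knockdown the median log2 fold change was -1.59 over the 47 members with CCAAT and -1.03 over the 8 without it. All 8 were H4 genes, and every gene of another type held CCAAT, so outside H4 the letters and the histone type cannot be told apart. Within H4, the 2 genes with CCAAT were at -1.70 (HIST1H4I) and -1.52 (HIST1H4L). Whether CCAAT has a part in these falls was not tested. With and without the octamer the medians were -1.55 and -1.48, with and without TATAAA they were -1.52 and -1.43, and with and without CATCTG, held by 9 members, they were -1.70 and -1.46. These letters were also unevenly spread over the types: among 10 H4 genes the octamer was in 0 and CATCTG in 1. No test was made of these medians, and apart from that of the 8 H4 genes without CCAAT they were not taken within a type.

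Depth estimated from the steps of the values was 31.6 to 64.2 M reads a sample, and the share of reads in listed genes fell from 64.3 to 65.8% in siCtrl to 44.3 to 58.4% in the combined knockdown. CPM is relative to all reads, so the deposited values carry this shift, and each main count is therefore also given after rescaling, in which each sample was divided by the median, over genes, of its ratio to the gene's geometric mean. MYCN was at 964, 1049 and 1015 CPM in siCtrl, 671, 666 and 708 in siMYCN, 899, 844 and 802 in siHAND2 and 555, 458 and 433 in the combined knockdown. HAND2 was at 224, 241 and 254 CPM in siCtrl, 324, 319 and 334 in siMYCN, 54.3, 64.9 and 67.7 in siHAND2 and 86.3, 67.1 and 67.2 in the combined knockdown. Of the noradrenergic markers of neuroblastoma, GATA3 averaged 32.7 CPM in siCtrl and DBH 2.65, while TH, the enzyme that opens catecholamine synthesis, averaged only 0.12. All 4 immune and all 5 epithelial markers had means under 1 CPM, with CD3E and KRT19 at the floor throughout. The summed fibroblast markers ranged from 107 to 115 CPM in siCtrl, 140.0 to 151 in siMYCN, 47.8 to 59.7 in siHAND2 and 27.1 to 42.8 in the combined knockdown, nearly all of it PDGFRA, with DCN at the floor in siCtrl. The 4 endothelial markers summed to at most 2.88 CPM in any sample. The part of these shifts in the histone results was not tested.

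Histone transcripts were abundant in control cells, fell in siHAND2 and fell further in the combined knockdown, while most members did not pass the test in siMYCN. The distinct members summed to 17447, 15157 and 18454 CPM in the siCtrl samples, or 1.70% of all reads. They summed to 15123, 14647 and 14540 CPM in siMYCN, 8881, 9130 and 8468 in siHAND2, and 6763, 5821 and 5867 in the combined knockdown. The siHAND2 samples lay below all siCtrl samples, and the combined samples lay below all siHAND2 samples. The highest siMYCN sample was close to the lowest siCtrl sample. Scaled to the sum of the listed genes, siMYCN replicates 1 and 3, at 14161 and 14047, lay above siCtrl replicate 2 at 13956. Over the members with whole reads, siMYCN replicate 1, at 5178 CPM, lay above siCtrl replicate 2 at 5083. As a share of the siCtrl mean, which itself had an SD of 9.92% over its 3 samples, siMYCN held 86.8% ± 1.82 (SD, n = 3), siHAND2 51.9% ± 1.96 and the combined knockdown 36.1% ± 3.12. After rescaling the shares were 87.3%, 57.9% and 46.4%. In bulk RNA, fewer cells in S phase and less histone RNA per cell cannot be told apart.

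**Figure D1:**
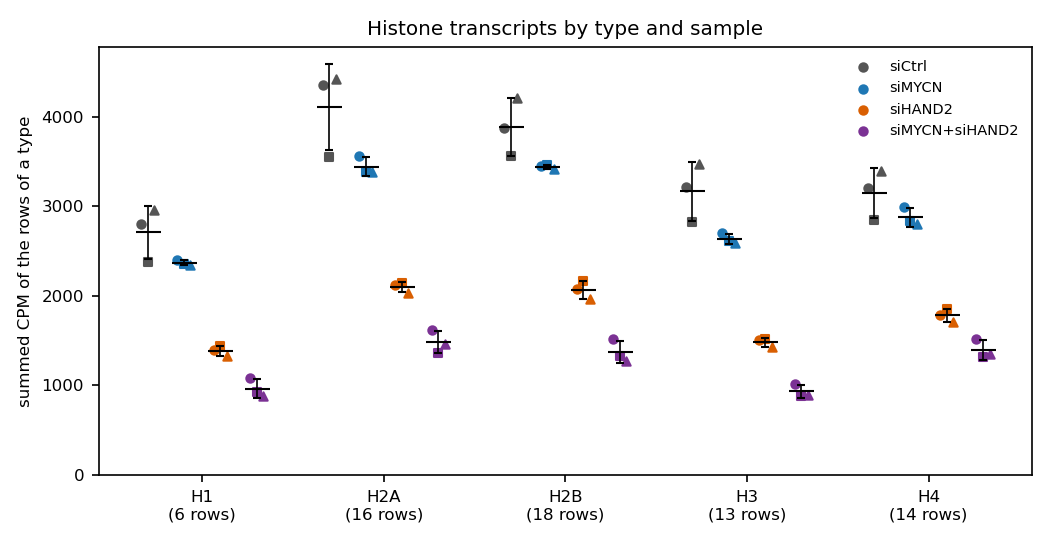
Summed CPM of the distinct rows of each histone type in every sample; circles, squares and triangles are replicates 1, 2 and 3, and bars give the mean and SD of 3 samples. In each type the siHAND2 and combined samples sit below all siCtrl and siMYCN samples, and siCtrl replicate 2 is the lowest siCtrl sample.

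By gene, the combined knockdown had 60 of 60 distinct tested members lower than siCtrl by limma at an adjusted p under 0.05, where 50.1% of all 12680 tested genes were lower. The median log2 fold change was -1.50, from -2.20 to -0.58, against -0.28 over all tested genes. After rescaling 59 of 60 were lower (32.9% of all genes) with a median of -1.15 against 0.05 over all genes, and HIST1H4J no longer passed (limma adjusted p = 0.062, log2 fold change -0.22). In siHAND2 60 of 60 were lower, where 30.4% of all genes were, with a median of -0.93 against -0.14 over all genes. After rescaling that count was again 60 (24.8% of all genes) and the median was -0.77 against 0.01 over all genes. In siMYCN 12 of 60 were lower and none was higher by limma (20 and 0 at an unadjusted p under 0.05), where 16.3% of all genes were lower, so the members' share of calls was near the background in this fit. That background is for the adjusted p, and no share of all genes at an unadjusted p is given here. The members' median was -0.19 against 0.01 over all genes. After rescaling 25 of 60 were lower in siMYCN (22.4% of all genes), with the median at -0.18. A fit blocked on replicate number gave a siMYCN count of 17 (18.6% of all genes), and 31 after rescaling (24.0%). These 3 comparisons share the siCtrl samples, so a low or high siCtrl sample moves all of them.

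The siMYCN count depended on single samples. It was 5 without siCtrl replicate 1, 18 without siCtrl replicate 2, 3 without siCtrl replicate 3, 5 without siMYCN replicate 2, 6 without siMYCN replicate 3, and 26 without either replicate 1 or replicate 3 of the combined knockdown. The siCtrl samples were themselves uneven: replicate 2 was the lowest of the group in 58 of the 60 members. The counts for siHAND2 and the combined knockdown were 60 with any 1 sample left out. Shares of all genes in the fits with a sample left out are not given here. Without regard to a model, all 3 samples lay below all 3 siCtrl samples for 28 members in siMYCN (29.6% of all genes), 60 in siHAND2 (45.0%) and 60 in the combined knockdown (48.3%).

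**Figure D2:**
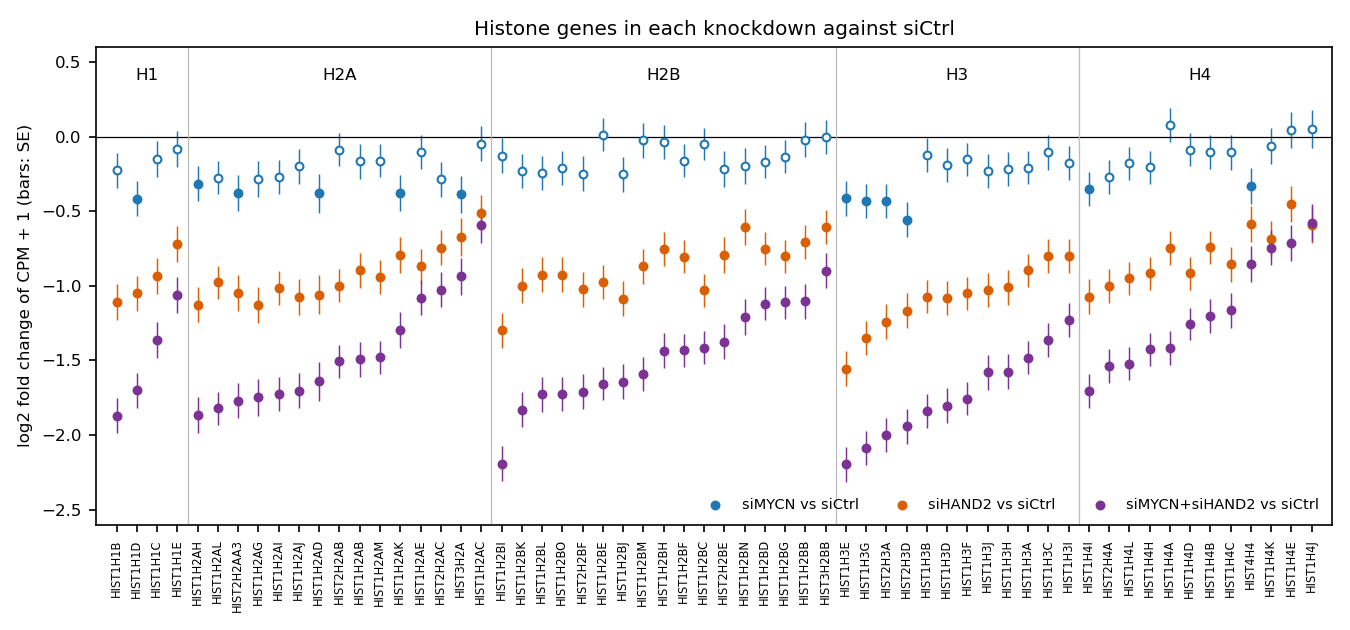
Log2 fold change of CPM + 1 with its SE for each of the 60 distinct tested members against siCtrl, ordered within each histone type by the change in the combined knockdown; filled points passed limma at an adjusted p under 0.05 and open points did not. The siMYCN points lie between -0.56 and 0.08, the siHAND2 points between -1.55 and -0.45, and the combined points between -2.20 and -0.58.

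Linker histones bind DNA between nucleosomes and compact chromatin. HIST1H1B (H1.5; GRCh37 chr6:27834570-27835360, minus strand) had the highest siCtrl level per kilobase of the members with rows under 1 kb, at 1379 CPM per kb. It was at 1169, 933 and 1171 CPM in siCtrl, 964, 918 and 902 in siMYCN, 515, 514 and 480.2 in siHAND2 and 325, 279 and 286 in the combined knockdown. The siHAND2 and combined samples formed separate groups below the others, while siCtrl replicate 2 lay among the siMYCN samples. Its log2 fold change was -1.11 ± 0.12 (SE; limma adjusted p = 4.5e-08) in siHAND2 and -1.87 ± 0.12 (limma adjusted p = 7.0e-13) in the combined knockdown, and -0.23 ± 0.12 (limma adjusted p = 0.15) in siMYCN.

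HIST1H1E, which encodes H1.4, fell least of the 4 tested H1 genes. It was at 617, 562 and 685 CPM in siCtrl, 572, 592 and 589 in siMYCN, 380.5, 391 and 355 in siHAND2 and 342, 299 and 255 in the combined knockdown, a log2 fold change of -1.06 ± 0.12 there. HIST1H1C, which encodes H1.2, was at 777, 670.3 and 845 CPM in siCtrl and 338, 276 and 274 in the combined knockdown (-1.36 ± 0.12). HIST1H1D was the only H1 gene called lower in siMYCN, at -0.42 ± 0.12 (limma adjusted p = 0.0071).

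H2A and H2B form the dimers on the outside of the nucleosome. Among H2A genes, HIST1H2AG was at 672, 521 and 652 CPM in siCtrl, 531, 486 and 487 in siMYCN, 279, 285 and 273 in siHAND2 and 194, 159 and 193 in the combined knockdown. The last of these was a log2 fold change of -1.75 ± 0.12 from siCtrl (limma adjusted p = 3.5e-12). HIST2H2AA3, whose values also stand for HIST2H2AA4, was at 631, 532 and 644 CPM in siCtrl, 471, 454 and 461 in siMYCN, 300.1, 299 and 271 in siHAND2 and 204, 168 and 158 in the combined knockdown. Its 3 groups of knockdown samples did not overlap each other or siCtrl, and it fell in siMYCN too (-0.38 ± 0.12, limma adjusted p = 0.017). That siMYCN call was lost without siCtrl replicate 1 or 3 or siMYCN replicate 2 or 3, with a limma adjusted p of up to 0.087.

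HIST1H2AE and HIST1H2AC were not called lower in the combined knockdown than in siHAND2. HIST1H2AE was at 466, 402 and 508 CPM in siCtrl, 236, 256 and 256 in siHAND2 and 228, 195 and 225 in the combined knockdown, with a log2 fold change of -0.21 ± 0.12 between the last 2 groups (limma adjusted p = 0.15). HIST1H2AC was at 257, 211 and 261 CPM in siCtrl, 250.4, 229.7 and 224 in siMYCN, 169.7, 173 and 167 in siHAND2 and 182, 154 and 147 in the combined knockdown. The siHAND2 and combined samples of HIST1H2AC overlapped, and its fall of -0.59 ± 0.12 in the combined knockdown was the smallest of the H2A genes. Over the 15 tested H2A genes the combined changes ran from -1.86 for HIST1H2AH to that value, with a median of -1.51.

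No H2B gene was called in siMYCN by limma (3 of 17 were lower at an unadjusted p under 0.05, and 6 by limma after rescaling), where the 17 tested genes lay between -0.25 and 0.01, while all 17 fell in siHAND2 and in the combined knockdown. HIST2H2BF was at 616, 568 and 656 CPM in siCtrl, 517, 517 and 510.0 in siMYCN, 308, 317 and 279 in siHAND2 and 213, 182 and 168 in the combined knockdown (-1.71 ± 0.12 there). Its row spans 29685 bases and overlaps FCGR1A, so its value may hold reads from more than the histone transcript. HIST2H2BE was at 480.1, 451 and 524 CPM in siCtrl, 291, 289 and 259 in siHAND2 and 218, 184 and 161 in the combined knockdown. HIST1H2BK, whose row overlaps HIST1H4I on the other strand, was at 515, 456 and 536 CPM in siCtrl, 439, 423 and 419.6 in siMYCN, 257, 256 and 237 in siHAND2 and 162, 134 and 127 in the combined knockdown (-1.83 ± 0.12).

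HIST1H2BI (GRCh37 chr6:26273204-26273641, plus strand) had the deepest H2B fall. It was at 64.8, 61.3 and 75.5 CPM in siCtrl, 60, 62.3 and 61.1 in siMYCN, 28, 26.8 and 25.1 in siHAND2 and 16.1, 13.8 and 11.9 in the combined knockdown. The siMYCN samples overlapped siCtrl and the other groups were apart. Its log2 fold change was -0.13 ± 0.12 in siMYCN (limma adjusted p = 0.42), -1.30 ± 0.12 in siHAND2 (limma adjusted p = 2.3e-09) and -2.19 ± 0.12 in the combined knockdown (limma adjusted p = 3.5e-14).

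H3 and H4 form the tetramer at the centre of the nucleosome and carry many of the known histone marks. H3 fell most by type: over the 12 tested H3 genes the median log2 fold change was -1.06 with siHAND2 and -1.78 with both siRNAs. HIST1H3E (GRCh37 chr6:26225383-26225845, plus strand) was at 105, 85.9 and 111 CPM in siCtrl, 78.4, 73.2 and 73.5 in siMYCN, 35.5, 32 and 33 in siHAND2 and 23.9, 21 and 18.7 in the combined knockdown. Its 4 groups did not overlap, and its log2 fold change was -0.41 ± 0.12 in siMYCN (limma adjusted p = 0.0085), -1.55 ± 0.12 in siHAND2 (limma adjusted p = 1.2e-10) and -2.20 ± 0.12 in the combined knockdown (limma adjusted p = 4.2e-14). Its siMYCN call was lost without siCtrl replicate 3 (limma adjusted p = 0.068). Its changes were the lowest member values in siHAND2 and in the combined knockdown.

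HIST2H3D had the lowest member value in siMYCN, at -0.56 ± 0.12 (limma adjusted p = 0.00068). It was at 251, 207 and 254 CPM in siCtrl, 164, 158 and 159 in siMYCN, 109, 106 and 99.4 in siHAND2 and 69.8, 59.1 and 54.3 in the combined knockdown. HIST2H3A, which stands also for HIST2H3C, averaged 458 ± 49.8 CPM (SD, n = 3) in siCtrl, with its lowest sample at 403, and was at 356, 326 and 334 in siMYCN, 198, 194 and 186 in siHAND2 and 128, 107 and 106 in the combined knockdown. In both genes no knockdown sample reached the lowest siCtrl sample. HIST1H3B was at 497, 438 and 551 CPM in siCtrl, 458, 451 and 452 in siMYCN, 236, 243 and 224 in siHAND2 and 147, 133 and 133 in the combined knockdown, so that its siMYCN samples overlapped siCtrl. HIST1H3D, whose row overlaps HIST1H2AD, was at 309, 292 and 349.6 CPM in siCtrl and 103, 87.2 and 81.4 in the combined knockdown (-1.80 ± 0.11).

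H4 fell least by type, with a median of -0.80 in siHAND2 and -1.23 in the combined knockdown over 12 tested genes. HIST2H4A, which stands also for HIST2H4B, was at 636, 591 and 681 CPM in siCtrl, 544, 537 and 501 in siMYCN, 326, 326 and 299 in siHAND2 and 245, 205 and 206 in the combined knockdown (-1.54 ± 0.11). HIST1H4C was at 406, 333 and 412 CPM in siCtrl, 366, 342 and 358 in siMYCN, 205, 221 and 207 in siHAND2 and 178, 156 and 177 in the combined knockdown (-1.17 ± 0.12). HIST1H4E was at 350.3, 339 and 382 CPM in siCtrl, 379, 373 and 352 in siMYCN, 267, 264 and 249 in siHAND2 and 257, 209 and 190.0 in the combined knockdown (-0.71 ± 0.12). Its siMYCN samples overlapped siCtrl and its combined samples overlapped siHAND2.

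HIST1H4J, chosen here after its values were seen, had the smallest combined fall of all members. It was at 241, 206 and 231 CPM in siCtrl, 276, 209.7 and 221 in siMYCN, 153, 156 and 139.8 in siHAND2 and 172, 137 and 146 in the combined knockdown. Its combined and siHAND2 samples overlapped, with a log2 fold change of 0.01 ± 0.12 between them. HIST1H4K stood near it, at -0.74 ± 0.12 against siCtrl in the combined knockdown and -0.06 ± 0.12 against siHAND2. Outside the main cluster, HIST4H4, on chromosome 12, was at 18.3, 15.8 and 19.0 CPM in siCtrl and 11.1, 8.73 and 8.39 in the combined knockdown (-0.85 ± 0.12). The same contrast gave HIST3H2A -0.94 ± 0.13 and HIST3H2BB -0.90 ± 0.11. By cluster the combined medians were -1.49 over 49 HIST1 members, -1.62 over 8 HIST2 members and -0.92 over 2 HIST3 members.

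The balance between H3 and H4 transcripts was examined after these values had been seen, because a ratio within a sample does not depend on how samples are scaled. Summed H3 CPM divided by summed H4 CPM was 1.00, 0.991 and 1.02 in siCtrl, 0.902, 0.922 and 0.923 in siMYCN, 0.841, 0.820 and 0.835 in siHAND2, and 0.672, 0.672 and 0.660 in the combined knockdown. The means were 1.01 ± 0.016, 0.916 ± 0.012, 0.832 ± 0.011 and 0.668 ± 0.0066 (SD, n = 3). No 2 groups overlapped, and the ratio shows only that H3 and H4 changed unequally. Many histone genes share near-identical stretches, and 41 of the 60 members had estimated reads that were not whole numbers, as when reads are divided among copies. Over the H3 and H4 members with whole reads the ratio averaged 2.49 ± 0.026 for siCtrl, 2.34 ± 0.042 for siMYCN, 2.14 ± 0.051 for siHAND2 and 1.78 ± 0.015 for the combined knockdown. As a share of all histone CPM, H3 went from 18.6% ± 0.19 to 15.2% ± 0.068 and H4 from 18.5% ± 0.23 to 22.7% ± 0.30 between siCtrl and the combined knockdown. The shares of H1, H2A and H2B moved by under 1 percentage point.

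Several H2A and H2B genes lie head to head with a shared region between their starts. For 9 such pairs the starts were 239 to 322 bases apart, and the ratio of H2A to H2B CPM was taken in each sample. In 6 pairs the combined and siCtrl samples overlapped, in 2 the ratio was higher in all combined samples, and in 1 it was lower. How often ratios of other gene pairs separate in this way was not counted. The difference between partners in log2 fold change had a median size of 0.10 and ran up to 0.82. The widest was HIST1H2AC against HIST1H2BC, whose ratio averaged 0.983 ± 0.068 (SD, n = 3) for siCtrl, 0.984 ± 0.034 for siMYCN, 1.41 ± 0.027 for siHAND2 and 1.75 ± 0.19 for the combined knockdown. HIST1H2BC was at 244, 229.6 and 269 CPM in siCtrl and 93.6, 88.3 and 94.5 in the combined knockdown, so the H2B partner fell to 37.2% of siCtrl and the H2A partner to 66.1%. HIST1H2AM to HIST1H2BO rose from 1.14 ± 0.043 to 1.35 ± 0.068, and HIST1H2AG to HIST1H2BJ went from 2.10 ± 0.12 to 1.95 ± 0.037. No strand use in counting is given in the sources used here.

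**Figure D3:**
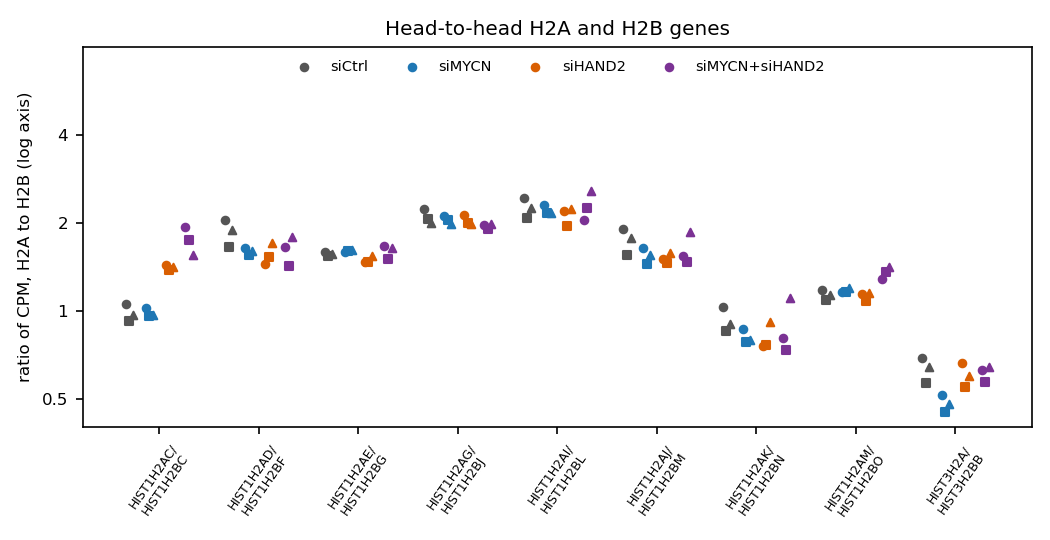
Ratio of H2A to H2B CPM for 9 head-to-head pairs in every sample, on a log axis; circles, squares and triangles are replicates 1, 2 and 3. For HIST1H2AC and HIST1H2BC the siHAND2 and combined samples lie above all siCtrl and siMYCN samples, and in 6 of the 9 pairs the combined samples overlap siCtrl.

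Against the single knockdowns, 60 of 60 members were lower in the combined knockdown than in siMYCN by limma, where 50.0% of all genes were (58 of 60 after rescaling, 26.5% of all genes). Against siHAND2, 52 of 60 were lower, where 31.5% of all genes were, with a median of -0.58. After rescaling 44 of 60 were lower (23.6% of all genes) and the median was -0.38. The 8 that were not called were HIST1H2AC, HIST1H2AE, HIST2H2AC, HIST3H2A, HIST1H4E, HIST1H4J, HIST1H4K and HIST4H4. No H1, H2B or H3 gene was among them on the deposited values, but after rescaling HIST1H1E and 5 H2B genes were among the 16 not called, and no H3 gene was. Between the single knockdowns, 58 of 60 were higher in siMYCN than in siHAND2, where 26.1% of all genes were, and HIST3H2A and HIST4H4 did not pass.

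The interaction contrast asks whether the combined change differed from the sum of the single changes. It was negative by limma for 10 of 60 members, where 3.65% of all genes were negative, and positive for none. At an unadjusted p under 0.05 the members' counts were 30 and 0, with no share of all genes to set beside them. Over all genes its median was -0.18 against -0.34 over the members. After rescaling 11 of 60 were negative (4.46% of all genes), while the members' median was -0.15 and that of all genes -0.01. The 10 were HIST1H2AL, HIST1H2BE, HIST1H2BH, HIST1H2BI, HIST1H2BK, HIST1H2BM, HIST1H2BO, HIST1H3B, HIST1H3F and HIST1H4A, so 6 were H2B genes.

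In HIST1H4A the siMYCN samples, at 80.8, 77.1 and 84.6 CPM, overlapped the siCtrl samples at 74.0, 70.4 and 86.2, while siHAND2 was at 44.6, 49.0 and 42.4 and the combined knockdown at 31.5, 25.7 and 27.2. Its interaction was -0.75 ± 0.16 (limma adjusted p = 0.0087), and that of HIST1H2BI was -0.76 ± 0.17 (limma adjusted p = 0.0085). HIST1H2BM was at 175, 176 and 192 CPM in siCtrl, 177, 187 and 169 in siMYCN, 103, 105 and 88.4 in siHAND2 and 67.6, 58.6 and 52.8 in the combined knockdown. HIST1H2BE was at 72.5, 71.3 and 84.7 CPM in siCtrl, 74.8, 78.3 and 76.9 in siMYCN, 37.8, 39.8 and 36.9 in siHAND2 and 25.9, 24.3 and 20.4 in the combined knockdown. HIST1H2BH was at 158, 156 and 184 CPM in siCtrl, 155, 168 and 162 in siMYCN, 96.2, 107 and 91.4 in siHAND2 and 65.5, 63.3 and 53.7 in the combined knockdown. In these 4 genes siMYCN overlapped siCtrl and the combined samples lay below all siHAND2 samples. The interaction count was 3, 4, 4, 3, 4, 5, 2 and 6 without, in turn, siCtrl replicates 1 and 2, siMYCN replicates 1, 2 and 3, siHAND2 replicates 1 and 2, and replicate 2 of the combined knockdown, and 39 without its replicate 1. For these fits, too, no share of all genes is given.

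The genes that make and handle histone messages were described beside the members. These lists, like the members, were chosen with earlier results of these data known. Of 25 tested genes for histone transcription and 3′ processing, siMYCN had 3 lower, siHAND2 had 11 and the combined knockdown had 19, with a combined median of -0.59. None was higher in any of these comparisons by limma, nor at an unadjusted p under 0.05. Over all genes the shares lower in these comparisons were 16.3%, 30.4% and 50.1%, so the siMYCN share of this list was below that of all genes. After rescaling 9, 11 and 18 were lower and 1, 3 and 3 were higher. SLBP, which binds the stem-loop shown above, was at 49.4, 44.7 and 48.3 CPM in siCtrl, 40.4, 40.3 and 38.7 in siMYCN, 28, 27.8 and 26.1 in siHAND2 and 25.1, 17 and 14.5 in the combined knockdown. It fell by 0.78 in siHAND2 and 1.32 in the combined knockdown on the log2 scale (limma adjusted p = 4.2e-09). CDK2, the kinase that with cyclin E drives histone transcription at S phase entry, fell by 1.94 in the combined knockdown, and the cyclin E genes CCNE2 and CCNE1 fell by 1.72 and 1.27.

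Histone chaperones carry histones to chromatin. Of 22 tested, siMYCN had 7 lower, siHAND2 had 16 and the combined knockdown had 20, with a combined median of -1.38 against -0.28 over all genes. The same 3 shares over all genes were 16.3%, 30.4% and 50.1%, and after rescaling 14, 16 and 19 chaperone genes were lower and 1 was higher in each. ASF1B, which hands H3 and H4 to assembly factors, and CHAF1A, a subunit of the assembly factor CAF-1, fell by 2.00 and 1.85 in the combined knockdown. IPO4, which imports H3 and H4 into the nucleus, was at 55.7, 57.2 and 54.3 CPM in siCtrl and 24.9, 25.0 and 26.4 in siMYCN. It fell by 1.10 in siMYCN, the lowest value of that list there (limma adjusted p = 1.2e-07).

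Variant histones can also be made outside DNA replication. Of 11 tested, 2 were higher and 1 lower in siMYCN, 6 were lower in siHAND2, and 6 were lower in the combined knockdown with none higher by limma or at an unadjusted p under 0.05 (6 lower and 4 higher by limma after rescaling). The combined share was near the 50.1% of all genes that were lower, and 16.3% and 30.4% of all genes were lower in siMYCN and siHAND2. H2AFX, H2AFZ and CENPA, the centromere H3, fell by 1.74, 1.20 and 1.47 in the combined knockdown. H3F3B, which encodes the replacement histone H3.3, was at 765, 794 and 853 CPM in siCtrl and 1023, 1096 and 1071 in siMYCN (0.40 ± 0.13, limma adjusted p = 0.018). H1F0, a linker histone of resting and differentiated cells, was at 11.8, 11.6 and 13.4 CPM in siCtrl and 19.8, 20 and 20.7 in siMYCN (0.67 ± 0.13, limma adjusted p = 0.00017). Both were named after their values were seen.

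S phase and DNA replication genes fell beside the histone genes. All 35 tested were lower in siHAND2 and in the combined knockdown, and 14 were lower in siMYCN, where 30.4%, 50.1% and 16.3% of all genes were. After rescaling these counts were 35, 35 and 22. Their median was -0.24 for siMYCN, -0.85 for siHAND2 and -1.75 with both siRNAs, next to -0.19, -0.93 and -1.50 for the histone members. The interaction was negative for 24 of the 35, and again for 24 after rescaling, where 3.65% and 4.46% of all genes were. CDC6, which loads the replicative helicase, fell by 2.16 and MCM4, a helicase subunit, by 2.12 in the combined knockdown. Among the 11 tested members also known as polyadenylated transcripts, 2 were lower in siMYCN and all 11 in siHAND2 and the combined knockdown, with a combined median of -1.37. After rescaling these counts were 4, 11 and 11, and the shares of all genes are those given above.

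**Figure D4:**
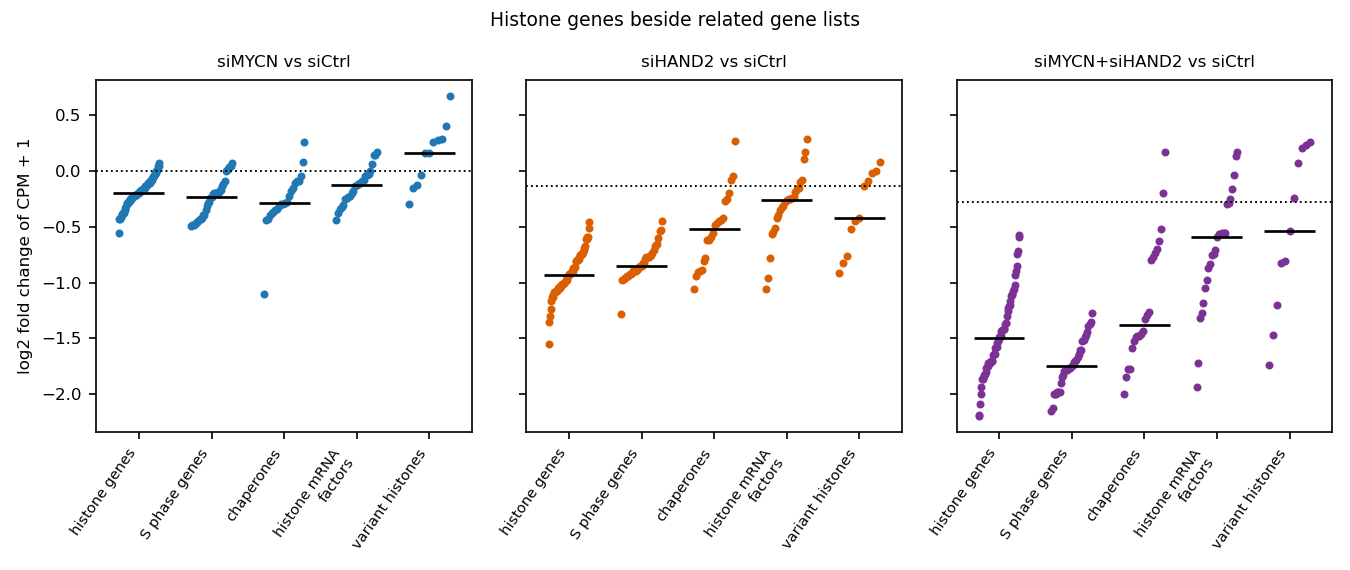
Log2 fold change of CPM + 1 against siCtrl for the 60 histone members and the tested genes of 4 related lists; each point is a gene, solid bars are list medians and the dotted line is the median of all tested genes. In the combined knockdown the histone median is -1.50 and the S phase median -1.75, while the variant histones spread on both sides of the dotted line.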

How the data were processed

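RNA sequencing of 12 IMR32 samples in 4 groups of 3 was used, and groups and replicate numbers came from the sample titles. The authors deposited CPM values for 27514 genes, with a constant of 0.0001 in each value. Per the submitters' processing notes, STAR 2.5.1 and Partek were used with the hg19 (GRCh37) build. The counting settings, the use of strand, the treatment of reads that match several genes and the annotation are not given in the sources used here. Depth was estimated as 31.6 to 64.2 M reads from the smallest step between low values. Under 95% of values were whole reads, so no count test was run (whole means within 0.05 of a read). A tested member had 337 to 67216 estimated reads in a sample, and in some members counting error was as large as the spread between the samples of a group.

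The 12680 genes that averaged 1 CPM or more were taken as log2(CPM + 1) into 1 model over all 12 samples with limma 3.58.1 (mean-variance trend, 8 residual degrees of freedom) in R 4.3.3. Tests were two-sided, p-values were adjusted by Benjamini-Hochberg over all tested genes, and called means an adjusted p under 0.05. Fold changes on this scale understate the change of low genes. The members and lists were chosen with earlier results of these data known. Full values are given for the 3 members of each type with the highest mean CPM, the called members with the most positive and most negative change in each contrast, up to 5 called interactions in each direction, MYCN and HAND2, and up to 5 genes a list by size of change in the combined knockdown. Any other gene was chosen after its values were seen. Among the members these are HIST1H2AC, HIST1H2BC, HIST1H4I, HIST1H4J, HIST1H4K, HIST1H4L, HIST4H4, HIST1H1D, HIST3H2A, HIST3H2BB and HIST1H2AH. Stem-loops were read from the GRCh37 genome. No 2 samples of a group were counted as 1 library, since their chi-square per gene was 3.46 to 41.0.

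Samples with the same replicate number deviated together (all 3 correlations over 0.1) between siCtrl and siMYCN (0.44, 0.15 and 0.31) and between siMYCN and siHAND2 (0.33, 0.14 and 0.32), but not in the other pairs of groups. Alternatives were rescaling, a smaller pseudocount (0.1), every gene above the floor, a minimum of 5 CPM on average, the compared groups fitted alone, eBayes without the trend, thresholds of 0.01 on the adjusted p or of 1 on the log2 change, the replicate block and each sample left out in turn. Scaling to the sum of the listed genes, and sums over members with whole reads, were added after seeing the data.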

Additional observations from a re-analysis of the deposited data

Results flagged for a closer look

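For 7 of the members named, the change with siMYCN differed between cells with and without siHAND2, by the interaction term of the limma model. The level of MYCN was not equal in the 2 settings. It was lower in the combined knockdown than in siMYCN (log2 fold change -0.51, limma adjusted p = 0.00070). After rescaling that change was -0.16 (limma adjusted p = 0.053). HAND2 was higher in siMYCN than in siCtrl (0.44, limma adjusted p = 0.0062). The part of these levels in the interactions was not tested. The log2 interaction was -0.76 for HIST1H2BI, -0.75 for HIST1H4A, -0.70 for HIST1H2BM, -0.69 for HIST1H2BE, -0.65 for HIST1H2BH, -0.65 for HIST1H3B and -0.60 for HIST1H2BK. The interactions of HIST1H2BI and HIST1H4A passed with any 1 sample left out. Of 12 such fits the call was lost in 1 for HIST1H2BE, 3 for HIST1H2BM, 6 for HIST1H2BH, 7 for HIST1H3B and 9 for HIST1H2BK.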

How the results depend on the processing

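No named member that was called changed direction under the alternatives run. The siMYCN count of 12 became 25 with rescaling, 35 with only the compared groups, 5 at an adjusted p under 0.01, 0 with an absolute log2 change of at least 1, 19 with the listed-gene sum, and 3 to 26 with 1 sample left out. A log2 change of at least 1 left 24 members lower in siHAND2, 0 lower in the combined knockdown than in siHAND2, and 2 higher in siMYCN than in siHAND2. The interaction count of 10 became 4 with no filter, 2 at an adjusted p under 0.01, 0 with a change of at least 1, and 2 to 39 with 1 sample left out. The cause of these shifts was not tested. Shares of all genes are given above only for rescaling and, in siMYCN, for the replicate block. The counts under the other settings therefore cannot be set against all genes.

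With the replicate block the siMYCN count was 17 and the interaction count 14, and with rescaling and the block the siMYCN count was 31. Only the last of these was over 1.5 times the main count, and the block moved no other count that far.

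Summed CPM as a percentage of siCtrl moved with scaling. Rescaled, siHAND2 was at 57.9 for all types, 57.2 for H1, 57.1 for H2A, 59.4 for H2B, 52.3 for H3 and 63.3 for H4, and the combined knockdown at 46.4, 45.5, 46.5, 45.3, 37.8 and 57.1. With the listed-gene sum these were 56.9, 56.2, 56.1, 58.4, 51.4 and 62.2 in siHAND2, 46.1, 45.2, 46.2, 45.0, 37.6 and 56.7 in the combined knockdown, and 90.6, 91.4, 87.6, 92.5, 86.8 and 95.5 in siMYCN. Reads shared among near-identical copies limit how a change is divided among them.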
